A study of Mus musculus with 8 samples.

Results

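Wild-type E2F3 occupancy was set against wild-type HELLS occupancy by chromatin immunoprecipitation and sequencing in mouse embryonic fibroblasts (MEFs) of stage E13.5, with an IgG library as background. The comparison uses 3 of the 8 libraries of the series, 1 each for E2F3, HELLS and IgG labelled wild type. The remaining libraries are H3K27me3 in wild-type cells and the same antibodies in E2f3-/- cells, from embryos of the same stage. The E2F3, HELLS and H3K27me3 libraries serve below as side readouts: the E2F3 antibody in E2f3-/- cells measures what it brings down without E2F3, and HELLS in E2f3-/- cells is a HELLS library that took no part in choosing the regions. The IgG files labelled wild type and E2f3-/- were identical and counted as 1 background library, whose genotype is therefore unknown. Whether the fibroblasts came from 1 embryo or several, and their sex, is not given in the sources used here. No expression was measured, so the fibroblast label was not checked against markers.

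E2F3 is a DNA-binding activator of the E2F family. With a DP partner, such proteins bind the promoters of genes for DNA replication and cell division, and pocket proteins of the retinoblastoma family hold them in check. HELLS, also called LSH, is an ATP-driven remodeler of the SNF2 family, best known for its part in DNA methylation of repeats. It has no E2F-type DNA-binding domain of its own. The series asks, by its title, whether HELLS takes part in transcription that depends on E2F3, and the comparison here addresses where and how strongly both proteins sit on the same DNA.

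The authors listed 8889 E2F3 and 2489 HELLS peaks, and merging those that shared 1 bp or more gave 9716 regions on mm9. Both proteins had a peak in 1619 regions (16.7%), E2F3 alone in 7245 (74.6%) and HELLS alone in 852 (8.77%). Put the other way, 18.5% of E2F3 peaks overlapped a HELLS peak, and 65.8% of HELLS peaks overlapped an E2F3 peak. HELLS peaks together covered 1.47 Mb, which is 0.0785% of the genome length used in peak calling. Each group held 1 library, so the comparisons are between libraries rather than conditions, and p-values are left out. All intervals are at 95% and account for counting error alone.

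The E2F3 library held 4775822 distinct reads, HELLS 5318920 and IgG 7219419. Of these, 9.28% of E2F3, 3.44% of HELLS and 1.83% of IgG reads lay in the regions. In E2f3-/- cells the same regions took 3.33% of the reads of the E2F3 antibody and 3.85% of those of HELLS. The regions therefore held a smaller share of HELLS reads than of E2F3 reads, and a larger share of HELLS reads than of IgG reads. Each library was scaled to its reads outside the regions before any ratio was taken.

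E2F3 exceeded HELLS over most of the regions. A region was called when its scaled counts differed by a factor of 2 or more and the interval of the ratio left out 1. By this rule 6685 regions (68.8%) had more E2F3 and 218 (2.24%) more HELLS. In the 2327248 bins of 1 kb outside the regions that held a read, the same rule called 0.484% and 0.21%. Such bins held a mean of 1.84 E2F3 and 2.19 HELLS reads, too few for most to be called. The direction followed the class of region: E2F3 was higher at 919 regions with both peaks and 5766 with E2F3 alone, and HELLS was higher at 1 region with both peaks and 217 with HELLS alone. The peak lists chose these classes from the same reads, so that split is a description. Scaling the libraries to the median of the regions with both peaks, an alternative added after seeing the data, gave 1755 regions with more E2F3 and 789 with more HELLS, and moved the share of E2F3 among all calls from 96.8% to 69.0%. The number of calls thus depends on the scaling, and the efficiency of the antibodies was not measured.

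At regions with both peaks, the median was 61 reads for E2F3, 33 for HELLS and 16 for IgG. At regions with an E2F3 peak alone, the medians were 37, 14 and 13 reads, and at regions with a HELLS peak alone they were 2, 8 and 2. Regions with HELLS alone were thus shallow in all 3 libraries. Summed over each class, scaled HELLS reads were 0.423 of scaled E2F3 reads (95% interval 0.419 to 0.427) with both peaks, 0.304 (0.302 to 0.306) with E2F3 alone and 2.29 (2.20 to 2.39) with HELLS alone. The levels over IgG had medians on the log2 scale of 2.52 for E2F3 and 1.43 for HELLS with both peaks. They were 2.29 and 0.67 with E2F3 alone, and 0.71 and 2.23 with HELLS alone.

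**Figure D1:**
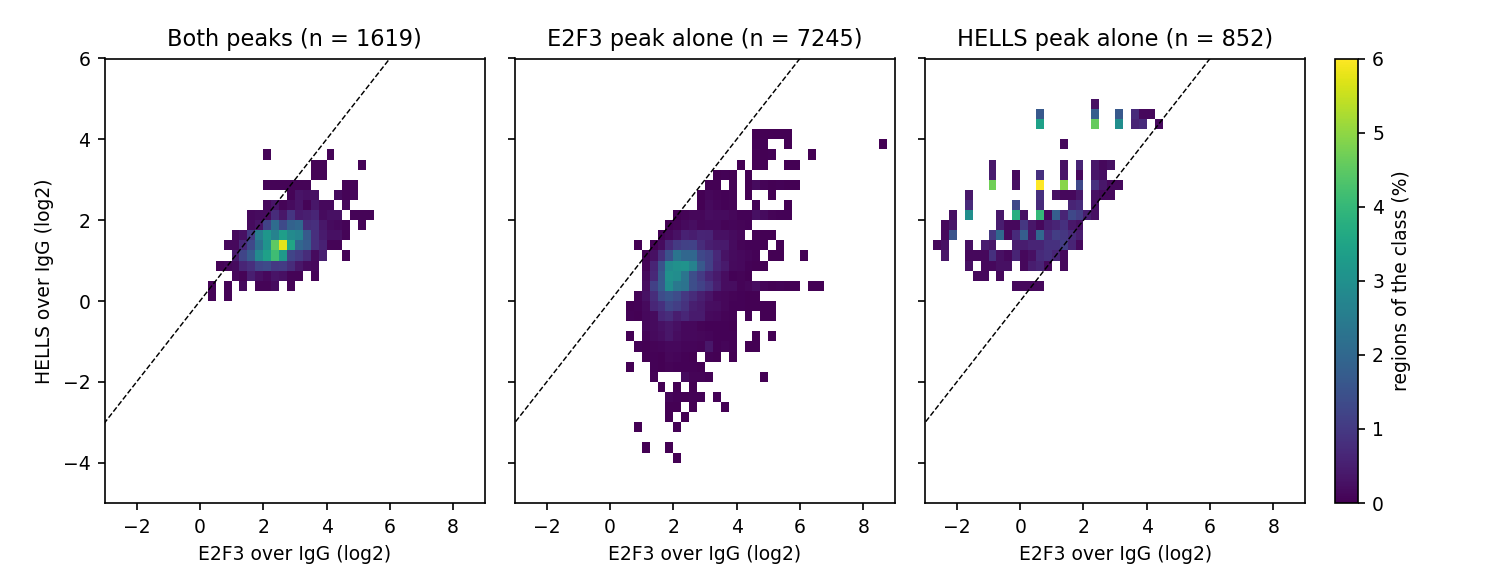
Level of E2F3 (horizontal axis) and HELLS (vertical axis) over IgG, both log2 of scaled reads, in the 1619 regions with both peaks, the 7245 with an E2F3 peak alone and the 852 with a HELLS peak alone. Colour gives the percent of the class in each square, and the dashed line marks equal levels. Regions with both peaks lie mostly below the line, and regions with HELLS alone lie mostly above it, in vertical bands set by counts of a few reads.

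E2F3 was above IgG at 8783 of the 9716 regions (90.4%) by the same rule, as its peaks chose most of them. HELLS was above IgG at 1235 regions that carried an E2F3 peak but no HELLS peak, or 17.0% of that class. The E2F3 antibody in E2f3-/- cells was above IgG at 1445 of the same regions (19.9%), beside 25.5% of all regions. HELLS in E2f3-/- cells was above IgG at 31.3% of them, beside 37.4% of all regions. Over all regions the share for wild-type HELLS was 33.1%, and it was 85.4% in the regions with both peaks, whose HELLS peaks chose them. Among these bins HELLS was above IgG in 0.704% and E2F3 in 0.826%, but they held a mean of 2.19 HELLS reads, too few for most to be called. Summed over regions with E2F3 alone, the HELLS level was 1.62 times IgG.

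Listed HELLS peaks overlapped E2F3 peaks across the whole range of listed E2F3 strength, and more often at higher E2F3 scores. E2F3 peaks were ranked by the authors' score (10 times the negative log10 of the MACS p-value) and cut into 10 deciles of 888 or 889 peaks. In the lowest decile, with scores from 50.01 to 58.35, 48 of 889 E2F3 peaks (5.40%, 4.01 to 7.10) overlapped a HELLS peak. Peaks of the E2F3 antibody in E2f3-/- cells overlapped 10.3% of that decile. Wild-type HELLS reads there were 0.976 of that antibody's level (0.946 to 1.01), so HELLS beyond that level was not shown at these peaks. The share with a HELLS peak was 13.4% in decile 5 and 20.8% in decile 7. In the highest decile, with scores from 446.15 to 2616.69, it was 378 of 888 (42.6%, 39.3 to 45.9). The intervals of the lowest and the highest decile lie far apart, while those of neighbouring deciles often overlap. E2F3 peaks with a HELLS peak had a median score of 247.5 (quartiles 133 and 426), against 113.6 (71.0 and 208) for those without, so the ranges of both overlapped widely.

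The share levelled off at the top of the list. Of the 1000 E2F3 peaks with the highest score, 428 (42.8%, 39.7 to 45.9) overlapped a HELLS peak, and of the top 100, 44 (44.0%, 34.1 to 54.3). More than 50% of the 1000 strongest E2F3 peaks thus had no peak in the wild-type HELLS list. Seen from HELLS, the relation was steeper: 36.9% of the lowest decile of HELLS peaks and 98.4% of the highest overlapped an E2F3 peak. All of the 100 HELLS peaks with the highest score, and 246 of the top 250, overlapped one. Their E2F3 peaks stood at a median percentile of 89.4 among E2F3 scores, against 74.7 for all regions with both peaks.

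Read counts that do not depend on HELLS peak calling gave a shallower gradient. Summed over the lowest decile of E2F3 peaks, the HELLS level was 1.547 times IgG (1.5004 to 1.5949), and over the highest decile it was 2.18 (2.14 to 2.23). E2F3 itself, whose reads set the score, went from 3.45 to 10.0 times IgG. IgG density moved little, between 17.8 and 20.8 reads per kb over the deciles, while HELLS went from 19.9 to 31.5 reads per kb. E2F3 peaks without a HELLS peak went from 1.48 times IgG for HELLS in the lowest decile to 1.73 in the highest. Slight falls came at deciles 3, 5, 8 and 10.

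**Figure D2:**
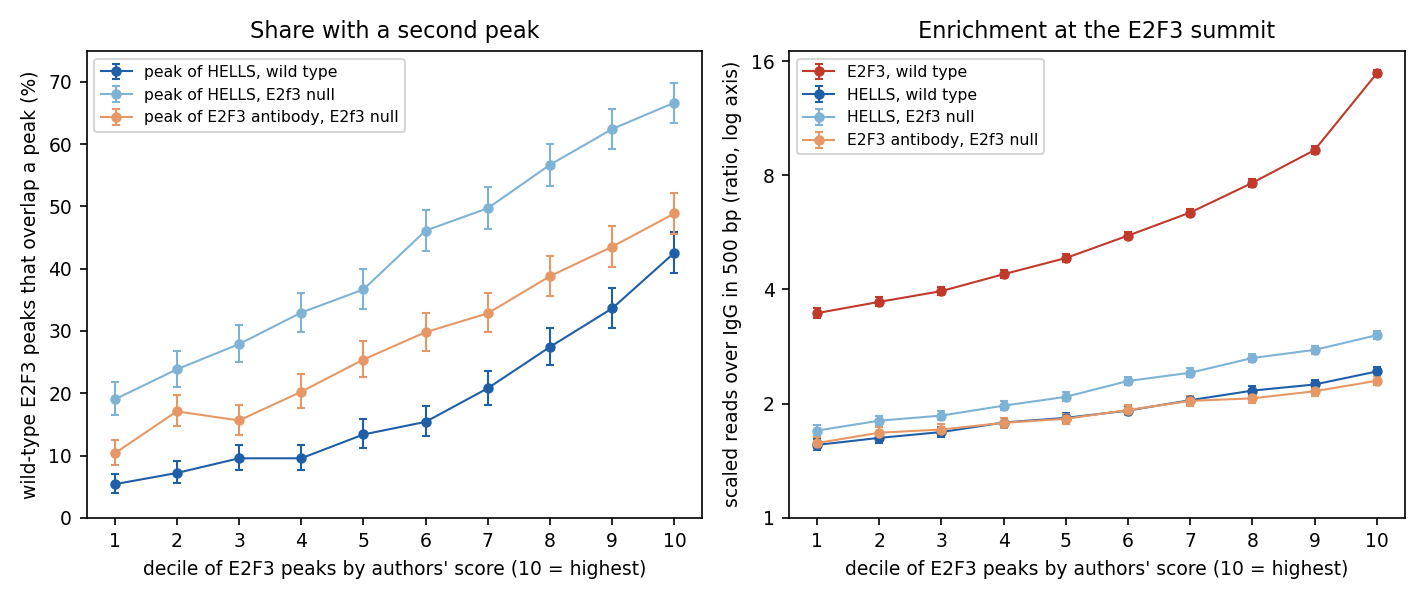
Left, the percent of wild-type E2F3 peaks that overlap a peak of each other list, by decile of E2F3 score, with exact 95% intervals; right, scaled reads over IgG in 500 bp at the E2F3 summit on a log axis. Wild-type HELLS peaks go from 5.40% to 42.6%, and the read level of wild-type HELLS runs close to that of the E2F3 antibody in E2f3-/- cells.

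The side readouts moved with E2F3 strength too. The E2F3 antibody in E2f3-/- cells was 1.59 times IgG in the lowest decile and 2.14 in the highest, and its peaks overlapped 10.3% and 48.9% of E2F3 peaks there. Peaks of HELLS in E2f3-/- cells overlapped 19.0% of the lowest decile and 66.7% of the highest. Summed over all 8889 E2F3 peaks, wild-type HELLS was 0.999 of that antibody's level (0.992 to 1.01), and by decile the ratio ran from 0.965 to 1.02. HELLS reads at wild-type E2F3 peaks were thus no higher as a whole than what the E2F3 antibody left in cells without E2f3. HELLS in E2f3-/- cells stood above that level, at 1.16 times (1.16 to 1.17) over all E2F3 peaks, 1.06 in the lowest decile and 1.25 in the highest. At the 1619 regions with both peaks, wild-type HELLS, whose peaks chose the regions, was 1.15 times the level of the E2F3 antibody in E2f3-/- cells. HELLS in E2f3-/- cells, whose peaks did not choose them, was 1.26 times that same level. Why these levels move together was not tested.

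The gradient in the peak share was also present within classes of length and of IgG density. E2F3 peaks of the highest decile had a median length of 928 bp, against 441 bp in the lowest. Within each of 5 classes of length, the upper 50% by score had a HELLS peak more often than the lower 50%: 9.65% against 6.31% among the shortest peaks, whose intervals overlap, and 43.6% against 19.8% among the longest. Within each of 5 classes of IgG density, the shares were between 19.7% and 33.5% in the upper part and between 6.64% and 12.4% in the lower. H3K27me3 went the other way. Its summed reads were 3.69 times IgG in the lowest E2F3 decile and 1.17 in the highest, and its peaks overlapped 30.3% and 7.32% of the E2F3 peaks there. The median log2 level over IgG per peak was 0.69 in the lowest decile and 0.014 in the highest. In the lowest decile the median peak held 9 H3K27me3 and 7 IgG reads.

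Rank agreement between the proteins was modest. Across all 9716 regions, reads per kb of E2F3 and HELLS gave a Spearman correlation of 0.36, and the value was 0.40 with both peaks, 0.48 with E2F3 alone and 0.46 with HELLS alone. HELLS reads per kb were more closely ordered with HELLS in E2f3-/- cells (0.71), with the E2F3 antibody in those cells (0.63) and with IgG (0.48) than with wild-type E2F3. Across all regions, E2F3 reads per kb were also more closely ordered with IgG (0.56) than with HELLS. By class, E2F3 and IgG gave 0.51 with E2F3 alone, above the value for E2F3 and HELLS. They gave 0.35 with both peaks and 0.45 with HELLS alone, below it. The authors' scores of E2F3 and HELLS at the 1619 regions with both peaks gave 0.24. These are descriptions across regions, which share libraries, length and local read density and are not replicates.

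Levels over IgG gave 0.15 across all regions, 0.39 with both peaks, 0.33 with E2F3 alone and 0.49 with HELLS alone. A peak in either list chose the regions, so the pooled value sets regions chosen for E2F3 against regions chosen for HELLS. Both ratios also share their IgG reads. An alternative added after seeing the data put IgG reads of the plus strand under E2F3 and those of the minus strand under HELLS. It gave -0.16 over all regions, -0.06 with both peaks and -0.03 over regions with any E2F3 peak. With E2F3 alone it gave -0.09 and with HELLS alone -0.07. Swapping the strands gave -0.16 over all regions and -0.05 with both peaks. With the plus-strand reads under both, the values were 0.30 over all regions and 0.58 with both peaks. Among these settings, values above 0 were seen only where the same IgG reads stood under both. Splitting by strand also leaves fewer IgG reads per region, and why the values fell below 0 was not tested. Within the HELLS library, reads per kb of the plus and the minus strand correlated at 0.55 over all regions, against 0.79 within the E2F3 library. In the regions with HELLS alone the HELLS strands gave -0.37.

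The tops of both lists held some regions in common. The number that unrelated rankings of these regions would share was not computed, so the counts alone show neither agreement nor disagreement. Over all regions, 16.7% carried both peaks. Among the 100 regions with the highest score for each protein, 6 were in both lists, among the top 500 there were 95 (19.0%), and among the top 1000 there were 278 (27.8%). The region with the highest E2F3 score of all with both peaks, chr5:66088491-66089792, was also the one with the fifth highest HELLS score. It held 258 E2F3, 65 HELLS and 29 IgG reads. The remaining 4 of the first 5 by E2F3 score, on chromosomes 8, 4, 19 and 4, held between 187 and 307 E2F3 reads and between 24 and 59 HELLS reads, with HELLS scores from 53.12 to 97.36.

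The region with the highest HELLS score stood apart. At chr9:44688725-44689943 there were 280 HELLS reads, 84 E2F3 reads and 31 IgG reads, and the HELLS score was 2242.21 against 474.76 for the next region. HELLS was 2.81 times E2F3 there (2.20 to 3.63) and 12.5 times IgG (8.58 to 18.7), and the summits lay 34 bp apart. It was the 1 region with both peaks called higher for HELLS. HELLS in E2f3-/- cells gave 398 reads and the E2F3 antibody 24, so the HELLS level there was also high in the library that did not choose it. The next region by HELLS score, chr1:55144230-55145382, held 134 E2F3, 114 HELLS and 27 IgG reads, with a HELLS to E2F3 ratio of 0.718 (0.554 to 0.928). At the regions ranked 3 and 4, on chromosomes 15 and 10, HELLS was 0.548 and 0.370 of E2F3.

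The 5 regions with E2F3 alone of highest score held between 5 and 40 HELLS reads. The highest E2F3 score in the list, 2616.69, was at chr4:82158835-82159411, with 220 E2F3, 13 HELLS and 13 IgG reads. HELLS was 1.38 times IgG there (0.589 to 3.23), so a HELLS level above IgG was not detectable at this depth. The next such region, chr10:90643936-90644919, held 170 E2F3, 11 HELLS and 15 IgG reads, and HELLS was 1.01 times IgG (0.420 to 2.36). At chr15:38449009-38449485, with 194 E2F3, 13 HELLS and 7 IgG reads, HELLS was 2.56 times IgG (0.9503 to 7.586). HELLS was above IgG at 1 of the 5, chr6:85537270-85537700, where 125 E2F3, 5 HELLS and 0 IgG reads gave a lower limit of 1.26 times IgG. At chr7:38891628-38893143, the widest of the 5 first regions with E2F3 alone, 350 E2F3 reads stood beside 40 HELLS and 39 IgG reads. The E2F3 antibody in E2f3-/- cells gave between 7 and 28 reads at these 5 regions.

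The lowest HELLS to E2F3 ratios came from regions with no HELLS read. At chr10:127452097-127452588 there were 42 E2F3, 0 HELLS and 2 IgG reads, and the upper limit of the HELLS to E2F3 ratio was 0.0774. Regions at chr16:4586668-4587032 and chr16:45039940-45040312 held 34 and 25 E2F3 reads and 0 HELLS reads, with upper limits of 0.0967 and 0.134. HELLS in E2f3-/- cells had between 1 and 6 reads at the 5 regions named by this rule. At chr16:45039940-45040312 the E2F3 antibody gave 20 reads in E2f3-/- cells, beside 25 in wild-type cells.

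**Figure D3:**
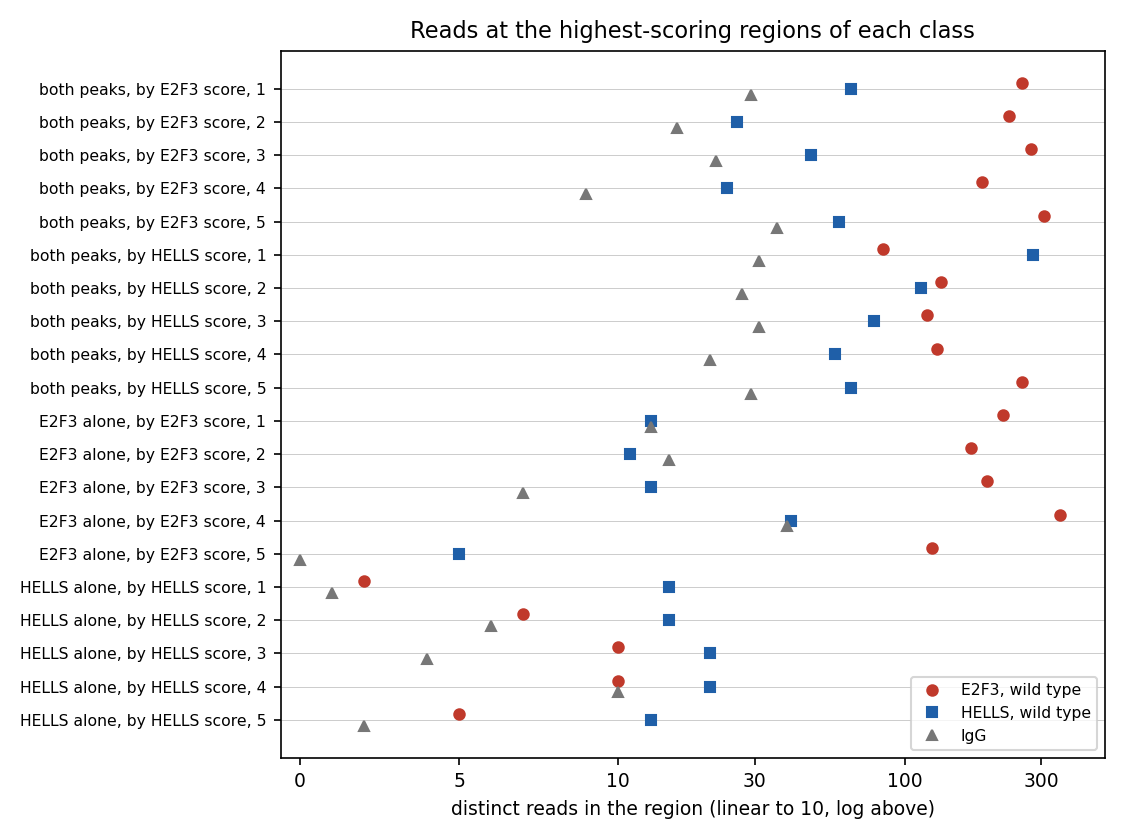
Distinct reads of wild-type E2F3 (circles), HELLS (squares) and IgG (triangles) at the 5 regions with the highest score in each class, on an axis that is linear to 10 reads and logarithmic above. E2F3 lies to the right of HELLS in all rows with an E2F3 peak but the one with the highest HELLS score, and the rows with HELLS alone hold between 13 and 21 HELLS reads.

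At most regions with HELLS alone, E2F3 was low and the HELLS peak rested on few reads. Of the 852, 635 (74.5%) had a HELLS peak of under 10 tags, against 54 (3.34%) of the regions with both peaks. Their median HELLS score was 55.3, against 69.7 with both peaks. A HELLS score of 100 or more was reached by 314 regions with both peaks and 8 with HELLS alone. Few HELLS-alone regions had a peak in the HELLS library of E2f3-/- cells: 6.92% overlapped one, against 73.4% of the regions with both peaks and 35.1% of those with E2F3 alone. HELLS in E2f3-/- cells was above IgG at 9.98% of them and at 79.1% of the regions with both peaks, beside 37.4% of all regions. Genotype and library cannot be told apart in this comparison.

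The 5 regions with HELLS alone of highest score showed how few reads are behind the class. At chr7:87591025-87591512 there were 15 HELLS, 2 E2F3 and 1 IgG reads, and 1 HELLS read in E2f3-/- cells. At chrX:98417662-98418097, 21 HELLS reads stood beside 10 E2F3 and 4 IgG reads, and HELLS in E2f3-/- cells had 65. The interval of the HELLS to E2F3 ratio excluded 1 only at the first of the 5, where the ratio was 6.33 (1.47 to 57.0). The naming rule by ratio asks for at least 20 reads in both libraries together, which few regions with HELLS alone reach, and 4 regions with more HELLS met it. Besides the region on chromosome 9, these were chr2:32189255-32189888 with 17 HELLS and 4 E2F3 reads, chr11:83222914-83223739 with 31 and 11, and chr5:144014871-144016008 with 71 and 30. The last held 290 H3K27me3 reads, and HELLS in E2f3-/- cells had 87 there.

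The false discovery rate in the authors' HELLS list did not fall as the score rose. Its median was 7.93% for 1063 peaks of score 50 to 60, 5.10% for 805 of score 60 to 80, and 9.49% for 253 of score 100 to 150. For the 69 peaks of score 150 or more it was 25.6%, with a range from 0 to 100%. The 293 peaks at or under 5% had scores from 63.7 to 79.25, but for the region on chromosome 9 at 2242.21. A limit of 5% thus leaves out all but 1 of the 322 HELLS peaks of score 100 or more, although 98.4% of the top 250 overlapped an E2F3 peak. In the E2F3 list the median rate fell from 1.71% at score 50 to 60 to 0.18% at 150 or more.

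Summits of both proteins lay close together. Over the 1619 regions with both peaks the median distance was 94 bp (85 to 104), with quartiles of 32 and 237 bp. Both summits had to lie in the same merged region, of median width 900 bp, which limits the distance. Summits were within 50 bp in 34.3% of regions, within 100 bp in 51.5% and within 500 bp in 94.0%. The signed median was 2 bp along the chromosome. Regions were not oriented by gene or motif, so this value cannot show whether either summit lies to one side of the other. The fragments were cut at 200 to 300 bp from a gel, and 77.1% of distances were at most 250 bp.

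Pairs of other lists gave a scale for that distance. Summits of HELLS in wild-type and E2f3-/- cells were a median of 64 bp apart (57 to 70, 1245 regions), and those of the E2F3 antibody in wild-type and E2f3-/- cells were 128 bp apart (118 to 137, 2467 regions). At the 760 regions with a peak in all 4 lists, E2F3 and HELLS in wild-type cells were 125 bp apart (113 to 142). At the same regions the HELLS pair was 71.5 bp apart (63 to 86) and the E2F3 antibody pair 151 bp (134 to 173), and wild-type HELLS lay 91 bp (79 to 106) from the E2F3 antibody in E2f3-/- cells. The E2F3 to HELLS distance was thus longer than that of the HELLS pair, with intervals that do not overlap, and its median was shorter than that of the E2F3 antibody pair, with intervals that do. Wild-type HELLS summits lay nearer to those of the E2F3 antibody in E2f3-/- cells than to those of wild-type E2F3.

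**Figure D4:**
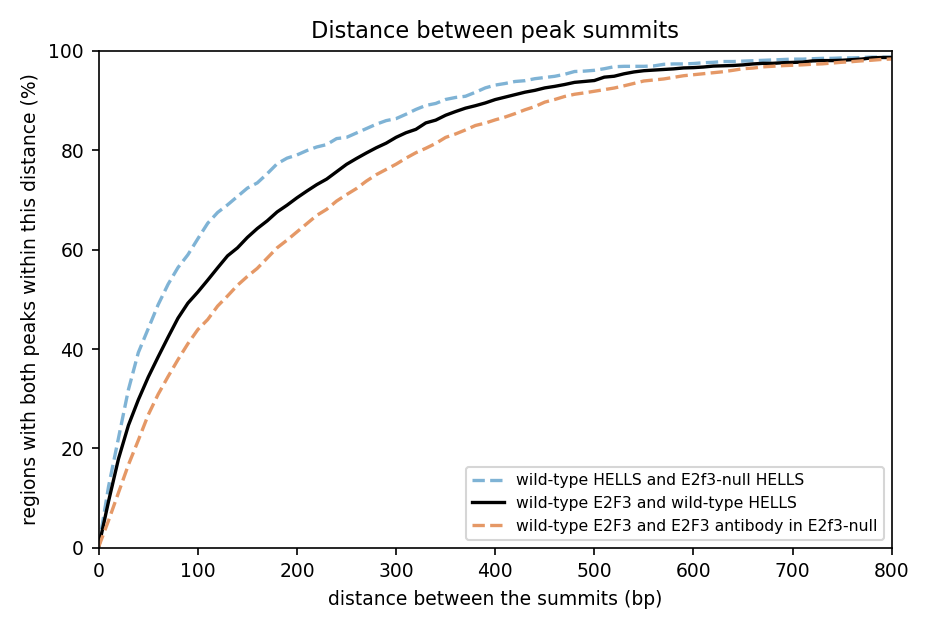
Percent of regions with both peaks (vertical axis) whose summits lie within the distance on the horizontal axis, for 3 pairs of lists. Wild-type E2F3 and HELLS (solid line) reach 51.5% at 100 bp, between the HELLS pair at 62.2% and the E2F3 antibody pair at 43.9%.

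The distance grew with the size of the region and with strength. It was a median of 50 bp in the tertile of regions up to 768 bp wide, 102.5 bp in the middle tertile and 207 bp in that of 1026 bp and wider. By E2F3 score the tertiles gave 67, 96 and 144 bp, and by HELLS tags 56, 100.5 and 151 bp. The width of a region caps the distance within it, so growth with width is in part built in. Stronger regions were also wider, and these splits were not separated from each other. Peaks of both lists overlap in these regions by choice, which also favours summits inside the other peak. The HELLS summit lay inside the E2F3 peak at 1592 regions (98.3%), and the E2F3 summit inside the HELLS peak at 1502 (92.8%).

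HELLS peaks were narrower than E2F3 peaks where both were listed. The median length was 834 bp for E2F3 (quartiles 631.5 and 1054) and 666 bp for HELLS (499 and 875.5). The median log2 ratio of HELLS to E2F3 length was -0.25 (-0.27 to -0.22), and HELLS was narrower at 1205 of 1619 regions (74.4%). The E2F3 peaks held a median of 60 tags against 29 for HELLS. At the 325 regions whose peaks held the same number of tags within 25%, the median log2 ratio was -0.023 (-0.075 to 0.032), and HELLS was narrower at 52.9%. The interval held 0 in that subset, and how else these regions differ from the rest was not tested.

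Mean read profiles gave widths that depended on the summit used. Around E2F3 summits in regions with both peaks, the width at 50% of the maximum was 150 bp for E2F3, 300 bp for HELLS and 750 bp for IgG. Around HELLS summits it was 350 bp for E2F3 and 150 bp for HELLS. Each summit was set by the reads of its own library, so the sharper profile of that library there is built in. HELLS in E2f3-/- cells, whose reads set neither summit, gave 300 bp around E2F3 summits and 250 bp around HELLS summits. Other libraries that set neither summit were also narrower around HELLS summits. IgG went from 750 to 400 bp, and the E2F3 antibody in E2f3-/- cells from 400 to 300 bp. Around E2F3 summits the HELLS maximum was 13.3 reads per kb (per 1000000 reads outside the regions) with both peaks, and 7.15 with E2F3 alone. The IgG maxima there were 3.13 and 3.15, and that of the E2F3 antibody in E2f3-/- cells was 7.37 with E2F3 alone.

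**Figure D5:**
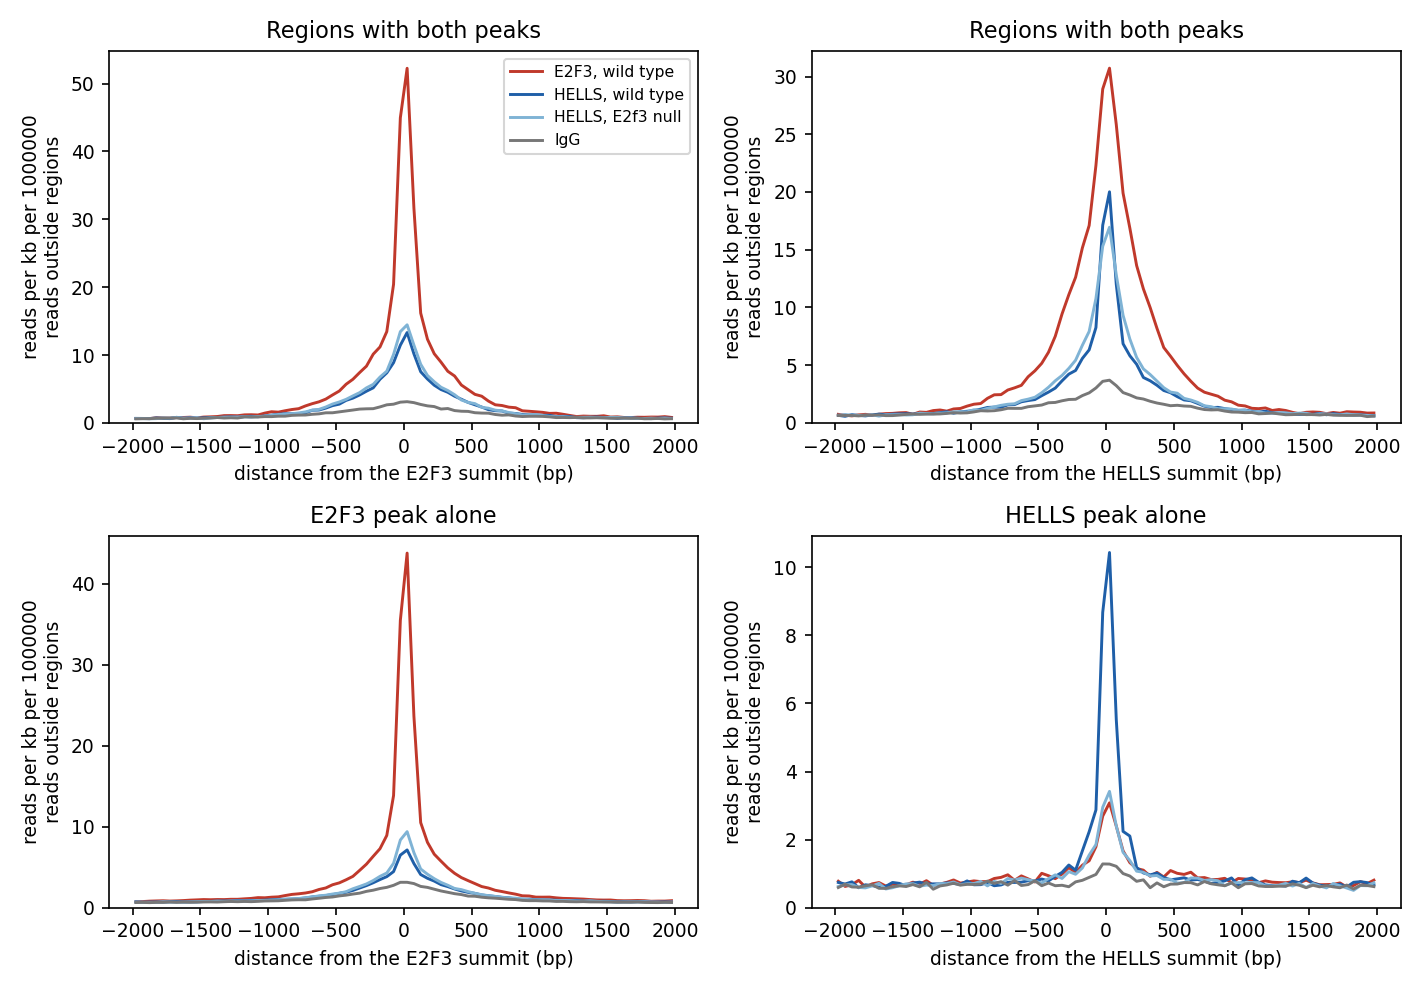
Mean reads per kb per 1000000 reads outside the regions (vertical axes, which differ in scale and start at 0) by distance from the summit in steps of 50 bp, for E2F3, HELLS, HELLS in E2f3-/- cells and IgG. HELLS reaches 13.3 around E2F3 summits in regions with both peaks and 7.15 with E2F3 alone; in regions with HELLS alone it reaches 10.4 while HELLS in E2f3-/- cells stays at 3.42.

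Chromosome X carried few HELLS peaks for its E2F3 peaks. Of 176 E2F3 peaks on X, 12 (6.82%, 3.57 to 11.6) overlapped a HELLS peak, against 18.7% (17.9 to 19.6) on autosomes, where single chromosomes ranged from 15.2% to 22.0%. E2F3 peaks on X had a median score of 96.0 against 130.4, and autosomal peaks in the same score deciles gave 14.7%. HELLS in E2f3-/- cells had a peak at 22.2% (16.3 to 29.0) of E2F3 peaks on X, against 37.0% at the same scores on autosomes. Depth was also lower on X, with a median of 7 HELLS and 6 IgG reads per E2F3 peak against 17 and 13. The HELLS level was 1.64 times IgG on X (1.52 to 1.76) and 1.86 on autosomes (1.85 to 1.87), and scaling X to its own reads outside regions gave 1.85 (1.72 to 1.99). With X scaled to itself, its interval thus held the autosomal level.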

How the data were processed

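The labels' genotype and antibody set the groups, with 1 library each. Per the labels' protocols, DNA passed 22 PCR cycles and single-end sequencing of 36-nucleotide reads. The build is mm9, per the submitters' processing notes, and the aligner is not given in the sources used here. The authors called peaks per library with MACS 1.4.0beta at p 1e-05, per the file headers, against controls of 3444066 tags in wild-type and 3791438 in E2f3-/- cells. The deposited peak tables give a count of tags, a score (10 times the negative log10 of p), fold enrichment as a ratio, and a false discovery rate in percent, while the tag signal at each summit is in the deposited summit files. These are the authors' values and were used to rank, filter and describe peaks. The IgG file deposited for both genotypes held 7223444 lines, more than either control, and which reads belong to which genotype is not known.

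Repeated reads at a position and strand were reduced to 1, and each read was shifted 60 bp towards the centre of its fragment. Reads were counted in the merged regions and scaled by distinct reads outside them. Ratios carry exact conditional binomial 95% intervals, shares exact Clopper-Pearson intervals, and medians binomial intervals of order statistics across regions. A pseudocount of 0.5 entered log2 ratios only. Reads with PCR copies left after deposit are not independent molecules. Regions were named by 3 rules: the 5 highest authors' scores in each class (for both peaks, by each protein), and the 5 largest and the 5 smallest HELLS to E2F3 ratios whose interval excludes 1 among regions with at least 20 reads in both libraries together. The fifth by the largest ratio lay below 1 and is not named. The regions, classes and rules were chosen with earlier results of these data known. Genes and sequence motifs were not assigned, since no mm9 annotation or genome was used here.

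The call was tested on simulated counts for the 9716 regions with 200 changed. Of regions raised 4-fold it called 98.0%, of those raised 2-fold 42.0%, of those lowered to 0.5 of their level 26.0% and to 0.25 of it 78.0%, and of unchanged regions 1.37%. Both libraries were simulated as independent Poisson counts from a shared rate per region. These rates thus cover counting error alone and do not give the rate of false calls between real libraries. Tools were Python 3.11.15, numpy 2.4.6, pandas 2.3.3, scipy 1.17.1 and matplotlib 3.10.9.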

Additional observations from a re-analysis of the deposited data

How the results depend on the processing

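Over all results and alternatives, 42 values stayed within the counting interval or 1.5 times the count, 24 moved and 1 changed sign. The rank agreement of levels over IgG, 0.15, became -0.16 with separate IgG strands under E2F3 and HELLS. It was 0.22 with reads in 500 bp at the summit, 0.29 when both lists were limited to scores of 100 or more, 0.36 with reads per kb and 0.24 with the authors' scores. Under that score limit, 2 regions had more HELLS, 5437 had E2F3 and 2017 had HELLS above IgG. E2F3 deciles were cut anew over the peaks left, so the lowest starts at a score of 100 or more. The peak share was 14.8% in the highest and 1.47% in the lowest of these deciles. Summits were 119.5 bp apart and the log2 length ratio was -0.18. With HELLS peaks at a false discovery rate of 5% or less, the shares were 5.07% and 1.12% in the highest and lowest decile of all E2F3 peaks. The distance was then 77 bp and the log2 length ratio -0.28. That limit leaves out all but 1 of the HELLS peaks of score 100 or more. Counting only summits within 250 bp gave 29.2% in the highest decile. Deciles of the authors' fold enrichment gave 32.7% and 8.66%, with HELLS levels of 2.14 and 1.69 times IgG. Peak centres lay 67.5 bp apart, and equal tags gave a log2 length ratio of -0.023. Scaling to the median of regions with both peaks gave 1755 regions with more E2F3 and 789 with more HELLS. Apart from the filters, which act by construction, the cause of each shift was not tested. No paired analysis was possible because each group holds 1 library and the labels give no replicate numbers. Depth limits the HELLS-alone regions most, with a median of 8 HELLS and 2 IgG reads.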
